A study of Macaca mulatta with 16 samples.

Results

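Antioxidant enzymes remove the superoxide and peroxides that respiring tissue makes, and the messenger RNAs of 10 such genes are described here across the muscles that move the eye. The genes were SOD1, SOD2, SOD3, CAT, GPX1, GPX3, GPX4, PRDX3, PRDX6 and PARK7, chosen by name, of 19044 gene symbols on the arrays. All 10 were found, on 19 of 44928 probe sets, which are groups of short probes that report a single transcript region. Array type U133A held 18 of these probe sets, and U133B held 1, for PARK7. The 4 probe sets of SOD2 carry a second symbol, SOD2-OT1, so they cannot be assigned to SOD2 alone.

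RNA came from extraocular muscle of adult rhesus macaques and was hybridised to human arrays, whose probes can mismatch macaque transcripts. The groups were the orbital layer (the outer layer), the global layer (the inner layer), whole medial rectus and whole lateral rectus, with 2 arrays of each on each array type, 16 in all. Precision is limited by having 2 arrays a group. No treatment or genotype is given, and nothing ties arrays to animals. The p-values thus cover no more than array-to-array spread, which may be technical. They may be too small where arrays on the same side of a comparison share an animal, and too large where the sides are paired by animal. Per the labels, the layers were microdissected (with a laser, where 1 label says how) and their RNA was amplified with T7 polymerase, whereas whole muscle RNA followed the standard protocol. On U133A, the labels of orbital layer replicate 1 conflict: it is orbital by its title and global by its source name. It was kept as orbital, and values without it are given. On U133B, global layer replicate 1 was placed by its title alone, since its source name gives no layer.

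The enzymes work in sequence. Superoxide dismutases turn superoxide into hydrogen peroxide, which catalase, glutathione peroxidases and peroxiredoxins then break down. Extraocular muscle is among the most continuously active skeletal muscles, and its orbital layer is known for fibres rich in mitochondria, which can make superoxide.

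Values are array intensities in the authors' units, a level is compared only within its own probe set, and log2 differences are given with their standard errors. In bulk RNA, fewer cells of a type and less RNA per cell cannot be told apart. The 8 skeletal muscle markers (ACTA1, CKM, DES, MYH2, MYH7, TNNT3, TNNT1 and MB) had a summed intensity of 280378 to 383737 on the layer arrays and 327318 to 402765 on the whole muscle arrays of U133A, so no array lacked them. For ACTB, the 3' probe set divided by the 5' one, a measure of RNA length, gave 5.30 and 5.87 on the orbital, 2.84 and 2.88 on the global and 0.716 to 1.04 on the whole muscle arrays of U133A. The same ratio of GAPDH overlapped between the layers, at 1.73 and 2.00 on the orbital, 2.92 and 1.50 on the global and 0.947 to 1.66 on the whole muscle arrays. On U133B the ACTB ratio was 3.54 to 5.29 on the layer and 0.512 to 0.933 on the whole muscle arrays. That of GAPDH was 2.04 to 4.33 on the layer and 1.18 to 1.74 on the whole muscle arrays, without overlap.

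**Figure D1:**
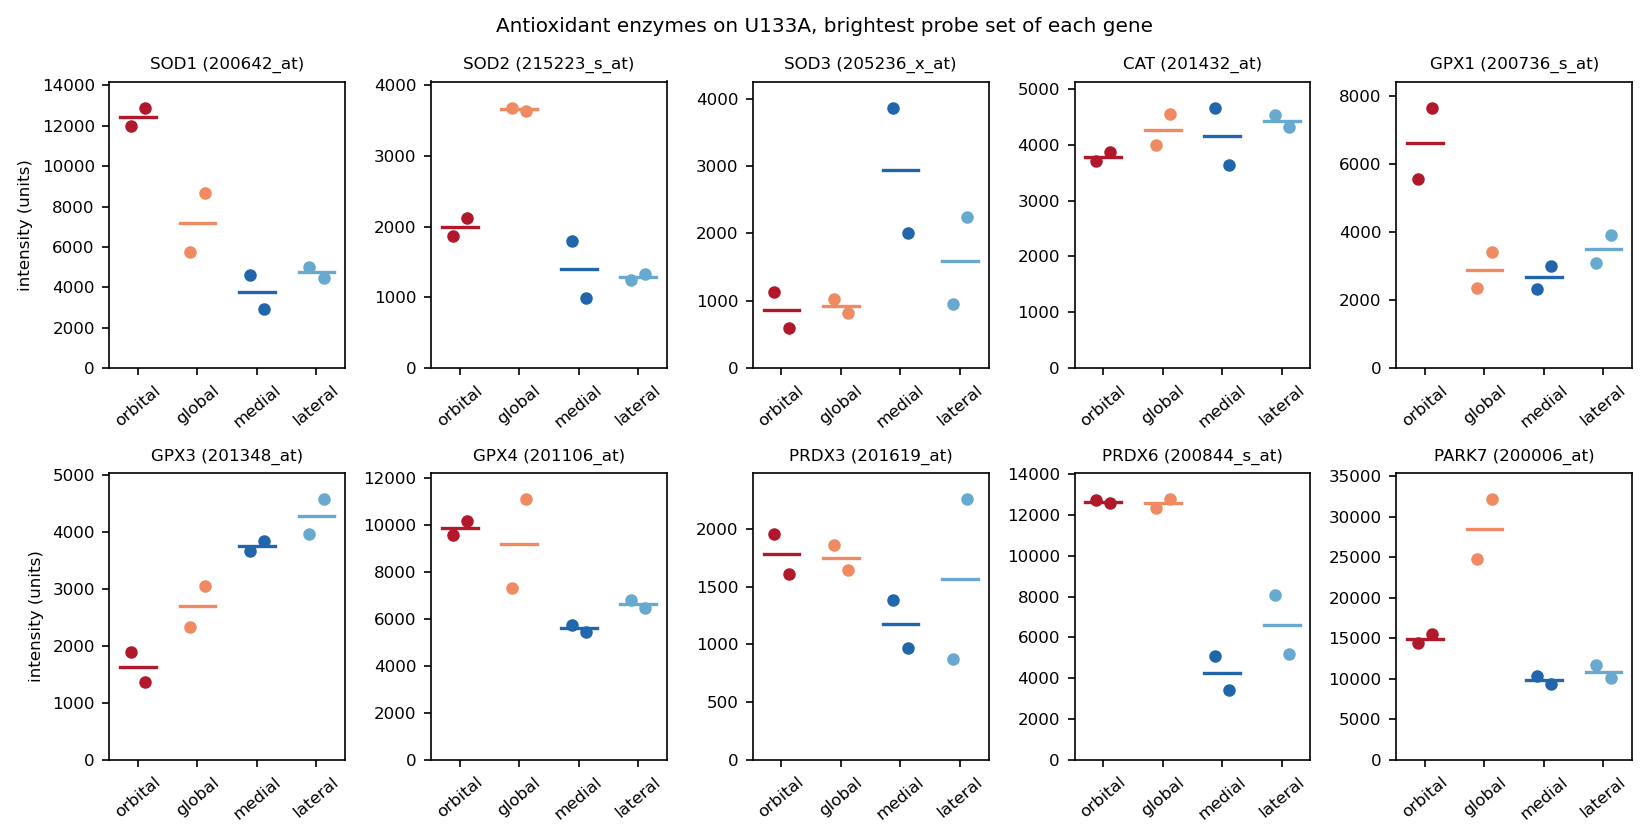
Intensity (linear axis from 0) of the brightest U133A probe set of each antioxidant gene on each array, with 2 points for each group and a line at their mean. SOD1 and GPX1 were highest on both orbital arrays, SOD2 and PARK7 on both global arrays, and GPX3 was lower on the 4 layer arrays than on all 4 whole muscle arrays.

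The orbital layer was set against the global layer to ask how the antioxidant genes differ between the layers. SOD1 and GPX1 read higher in the orbital layer, and SOD2, GPX3 and PARK7 read lower, by 1.65-fold to 2.30-fold on the brightest probe sets, but no antioxidant probe set passed the threshold of an adjusted p under 0.05 in limma. Of the 18 on U133A, 15 were bright enough to be tested, and 0 passed there, nor did the 1 on U133B. Among all 9532 probe sets tested on U133A 0.409% passed (0.021% of 9510 on U133B). Without adjustment, 5 of the 15 had p under 0.05, against 9.49% of all probe sets on U133A; 2 of them were higher (5.15% of all) and 3 lower (4.34% of all). Both orbital arrays lay on the same side of both global arrays for 8 of the 15, and for 41.9% of all; 2 of these were higher (18.5% of all) and 6 lower (23.3% of all). The median log2 difference of the 15 was −0.17, and that of all probe sets tested was −0.04.

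Of the superoxide dismutases, SOD1 is the copper-zinc enzyme of the cytosol. Its probe set read 11981 and 12900.3 units on the orbital arrays, against 5771 and 8647 on the global arrays. Both orbital arrays were above both global arrays, which differed from each other by more than the orbital ones did. The means were 12441 ± 650.0 in the orbital and 7209 ± 2034 in the global layer (SD, n = 2 each), which gave a log2 difference of 0.82 ± 0.27 (adjusted p = 0.390 in limma), or 0.52 without global layer replicate 1.

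SOD2 is the manganese enzyme of the mitochondrial matrix. Its brightest probe set read 1864 and 2115 units on the orbital arrays, against 3680.1 and 3633 on the global arrays. The layers did not overlap, and the direction was opposite to that of SOD1. On the log2 scale they differed by −0.88 ± 0.25 (adjusted p = 0.316 in limma). The other tested probe set of SOD2 (221477_s_at) differed by −0.10 ± 0.34 with overlapping layers, and by 0.13 without orbital layer replicate 1. A dimmer probe set (216841_s_at), below the limit for testing, read 495 and 391 units on the orbital arrays, against 850 and 924 on the global arrays, the same way as the brightest. The dimmest of the 4 (215078_at) read 25.4 and 96.0 units on the orbital arrays, against 121 and 154 on the global arrays, values around the floor of 146 units.

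SOD3, the secreted copper-zinc enzyme bound to the cell surface and matrix, read 1131 and 590.4 units on the orbital arrays, against 1023 and 825 on the global arrays. The global values lay between the orbital ones, and the log2 difference was −0.17 ± 0.40, or 0.30 without orbital layer replicate 2.

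Catalase, the peroxisomal enzyme encoded by CAT, read at close levels in both layers. Its brightest probe set read 3702 and 3871 units on the orbital arrays, against 3992 and 4540.1 on the global arrays, a log2 difference of −0.17 ± 0.24 (95% interval −0.73 to 0.39). Both orbital values were the lower ones by a small margin. A second probe set (211922_s_at) differed by −0.22 ± 0.30 with overlapping layers, or by 0.11 without orbital layer replicate 2, and another (215573_at) was too dim to test, at 135.5 to 503 units over the 8 arrays.

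Glutathione peroxidases use glutathione to reduce peroxides, and GPX1, GPX3 and GPX4 carry selenium. GPX1, the main form inside cells, read 5565 and 7653 units on the orbital arrays, against 2359 and 3405 on the global arrays. It had the widest difference of the 15 tested probe sets, 2.30-fold, with no overlap (log2 difference 1.20 ± 0.30, adjusted p = 0.238 in limma). GPX3, the secreted form known from plasma, read 1899 and 1374 units on the orbital arrays, against 2337 and 3052 on the global arrays. Again the layers did not overlap, now with the orbital layer lower. The layers differed by −0.73 ± 0.29 on the log2 scale (adjusted p = 0.481 in limma), and by −0.60 ± 0.28 on the other GPX3 probe set.

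GPX4, the form that reduces lipid peroxides in membranes, read 9601 and 10175 units on the orbital arrays, against 7307 and 11116 on the global arrays. The orbital values fell between the global ones. The log2 difference of 0.13 ± 0.27 turned to −0.17 without global layer replicate 1.

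Peroxiredoxins reduce peroxides through a cysteine. PRDX6, a cytosolic peroxiredoxin that also acts on phospholipids, read 12724 and 12582 units on the orbital arrays, against 12354 and 12778 on the global arrays on its brightest probe set. The layers overlapped, and the 4 values lay close together. Their log2 difference was 0.01 ± 0.22, with a 95% interval of −0.49 to 0.51, and it was −0.03 under quantile normalization. The dimmer PRDX6 probe set (200845_s_at) read 610.1 and 659.6 units on the orbital arrays, against 1054 and 832 on the global arrays (log2 difference −0.56 ± 0.34). PRDX3, the peroxiredoxin of mitochondria, differed by 0.02 ± 0.26 and −0.43 ± 0.38 on its probe sets 201619_at and 209766_at, both with overlapping layers, and the first differed by −0.07 without global layer replicate 2 and by −0.12 without orbital layer replicate 1.

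PARK7 encodes DJ-1, a small protein that senses oxidation and protects cells from it. On U133A it read 14378 and 15476 units on the orbital arrays, against 24703 and 32156 on the global arrays. The layers did not overlap, and the log2 difference was −0.92 ± 0.23 (adjusted p = 0.245 in limma). The same probe set is on U133B, where it read 71499.7 and 74491 units on the orbital arrays, against 81763 and 100159.6 on the global arrays. There the order was the same and the log2 difference −0.31 ± 0.24 (adjusted p = 0.789), with no overlap, as for 38.6% of all probe sets on U133B. The array types share 100 probe sets, whose layer differences were apart by a median of 0.13 between U133A and U133B, and for 3 of them the gap was wider than the 0.61 of PARK7.

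**Figure D2:**
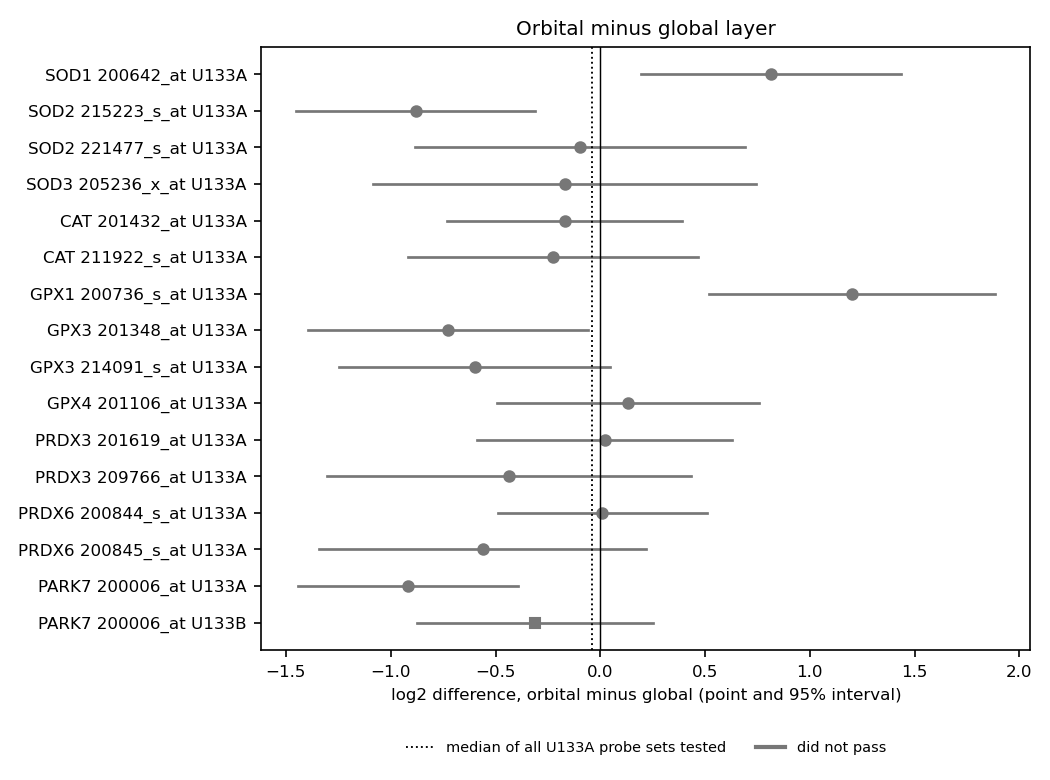
Log2 difference, orbital minus global layer, for each tested antioxidant probe set, with its 95% interval from limma; circles are U133A, the square is U133B, and the dotted line is the median of all U133A probe sets tested. Intervals of SOD1 and GPX1 lie above 0 and those of PARK7 on U133A and of 1 probe set each of SOD2 and GPX3 below it, before adjustment.

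Leaving out orbital layer replicate 1, the array with conflicting labels, gave log2 differences of 0.87 for SOD1, −0.79 for SOD2, 1.43 for GPX1, −0.96 for GPX3 and −0.86 for PARK7 on U133A, and again 0 of the antioxidant probe sets passed in limma. Set against each other within an array, log2 of SOD1 minus log2 of SOD2, centred on its mean over the 8 arrays, was 0.95 and 0.87 on the orbital arrays, against −1.09 and −0.48 on the global arrays. For GPX1 minus GPX3 it was 1.23 and 2.15 on the orbital arrays, against −0.31 and −0.17 on the global arrays. These gene pairs were chosen after their values were seen and were not tested.

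Summed markers of other cell types also stood apart between the layers for some lists. On U133A, the summed intensity of 8 endothelial markers was 16639 and 16741 on the orbital arrays, against 22879 and 20041 on the global arrays. That of 8 smooth muscle and pericyte markers was 44295 and 43428 on the orbital arrays, against 38978 and 37609 on the global arrays. The 8 fibroblast and matrix markers summed to 300929.8 and 262082 on the orbital arrays, against 231009 and 224364 on the global arrays. None of these genes was at or below the floor on all arrays, and the layers overlapped in none of these sums. On U133B the layers overlapped in the sums of the same lists. Gene by gene on U133A, VWF and TEK were lower on both orbital arrays, TIE1 was higher, and the other endothelial markers overlapped. TAGLN, PDGFRB, MYLK, COL1A1, COL3A1, PDGFRA and POSTN were higher on both orbital arrays. The rest of the smooth muscle, pericyte, fibroblast and matrix markers overlapped. Red blood cells are rich in catalase and GPX1. The 5 measured red blood cell markers summed to 29390.2 and 21629 on the orbital arrays, against 27397 and 21358 on the global arrays. This sum overlapped, and HBB, of haemoglobin, made up most of it. SLC4A1 (187 and 134 units against 300 and 247) and AHSP (164 and 414 against 509 and 467) were lower on both orbital arrays. Of the 5, only HBB and CA1 were bright enough to test, and CA1 and ALAS2 overlapped. The 7 macrophage and neutrophil markers overlapped in sum, at 5229 and 4203 on the orbital arrays, against 3428 and 4326 on the global arrays. As given above, the ACTB ratio was higher in the orbital layer, whereas that of GAPDH overlapped. The part of these markers and of the ACTB ratio in the antioxidant values was not tested.

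The other genes of the redox system were taken from 7 lists with 78 genes, of which 76 had a probe set with a single symbol on either array type. Each gene was represented by its brightest probe set on an array type. Between the layers, 0 of 58 tested genes passed on U133A and 0 of 17 on U133B in limma. On U133A 22 were higher and 36 lower, with a median log2 difference of −0.12, and 5 had an unadjusted p under 0.05, 3 higher and 2 lower, beside 9.49% of all probe sets (5.15% higher, 4.34% lower). The 2 higher ones with the smallest p were BLVRB, a biliverdin reductase of red cells and other tissues (4583 and 3855 units on the orbital arrays, against 1541 and 2664 on the global arrays; adjusted p = 0.350), and CYBA, a subunit of the NADPH oxidases that make superoxide (2045 and 1498 against 952 and 979; adjusted p = 0.397). Both orbital arrays exceeded both global arrays for each of these genes. Lower were GPX7, a glutathione peroxidase homologue of the endoplasmic reticulum (518 and 641 units on the orbital arrays, against 1021 and 1086 on the global arrays; adjusted p = 0.465), and GLRX2, a mitochondrial glutaredoxin (1150.2 and 1743 against 2083 and 2565; adjusted p = 0.516).

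**Figure D3:**
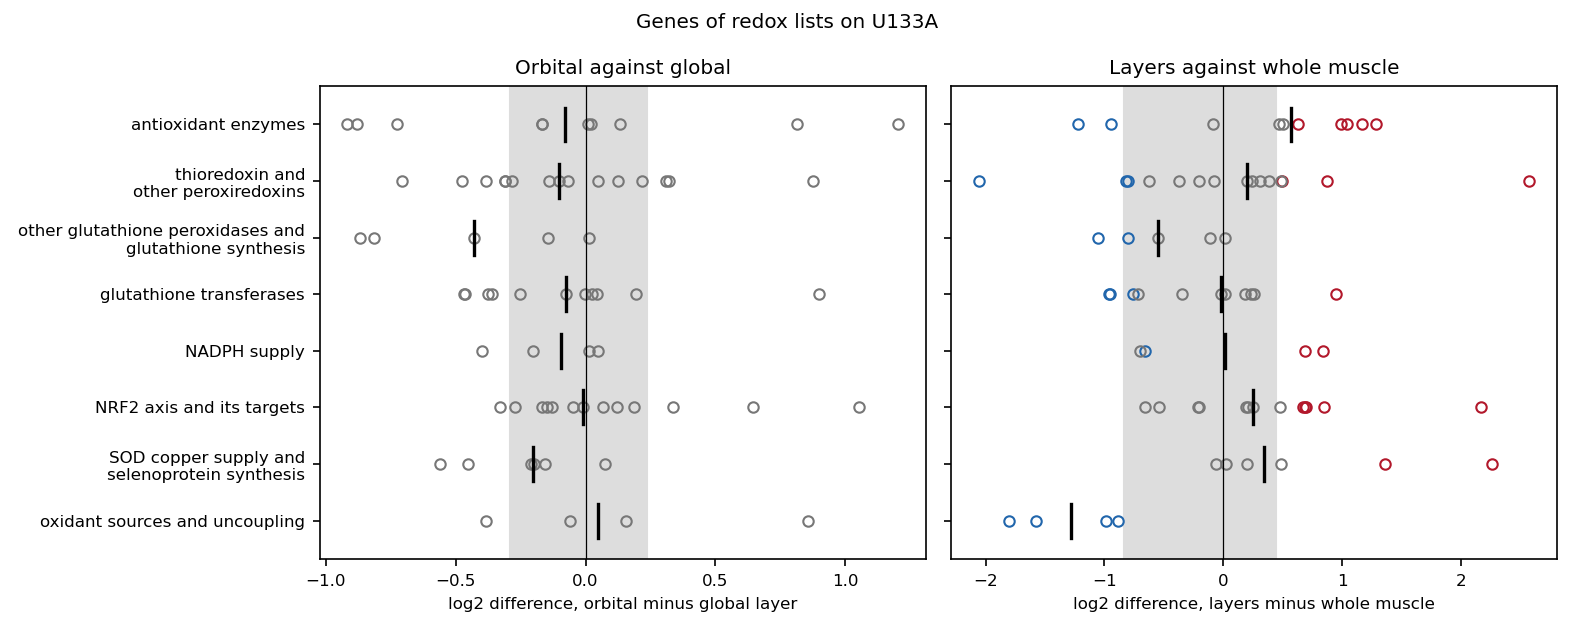
Log2 differences on U133A for orbital minus global layer (left) and layers minus whole muscle (right); each circle is a gene of the antioxidant enzymes or of a redox list, on its brightest probe set, red or blue where it passed as higher or lower and grey where it did not, with a black line at the list's median and a grey band over the interquartile range of all probe sets tested. On the left no gene passed, and on the right the 4 tested oxidant source and uncoupling genes all passed as lower and lay below the band, which starts at −0.83.

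The medial rectus, which rotates the eye toward the nose, was then compared with the lateral rectus, which rotates it away, both as undivided muscle. No antioxidant probe set passed in limma, of 15 tested on U133A and 1 on U133B, and 0% of all probe sets passed on either. With an unadjusted p under 0.05, there were also 0 antioxidant probe sets, against 2.8% of all on U133A and 3.43% on U133B. On U133A, 12 of the 15 read lower in the medial rectus and 3 higher, with a median log2 difference of −0.25 beside 0.00 for all probe sets tested. Both medial arrays were below both lateral arrays for 6 of the 15, against 13.6% of all, and the other 9 overlapped; 28.6% of all did not overlap in either direction.

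SOD3 had the widest difference of these, at 3868 and 2013 units in the medial rectus, against 955 and 2236 in the lateral rectus. The muscles overlapped, and the log2 difference was 0.93 ± 0.47 (adjusted p = 0.999 in limma). It was 0.32 without lateral rectus replicate 1, 0.46 without medial rectus replicate 1, 1.40 without medial rectus replicate 2 and 1.55 without lateral rectus replicate 2. PRDX6 read 5081 and 3429 units in the medial rectus, against 8058 and 5169 in the lateral rectus on its brightest probe set. Here the medial values were the lower ones, with a log2 difference of −0.63 ± 0.30 (adjusted p = 0.999), which ran from −0.95 to −0.31 as single arrays were left out. GPX1 read 2335 and 3012 units in the medial rectus, against 3092 and 3922 in the lateral rectus, also without overlap (−0.39 ± 0.27).

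The remaining brightest probe sets had log2 differences of −0.36 ± 0.28 for SOD1, 0.05 ± 0.41 for SOD2, −0.11 ± 0.24 for CAT, −0.18 ± 0.23 for GPX3, −0.25 ± 0.21 for GPX4, −0.28 ± 0.50 for PRDX3 and −0.14 ± 0.20 for PARK7. On U133B PARK7 differed by −0.12 ± 0.34, or by 0.06 under quantile normalization. Of the redox lists, 0 of 60 genes on U133A and 0 of 20 on U133B passed, with medians of −0.04 and 0.03. The smallest p-values among genes higher in the medial rectus belonged to CYBB, the catalytic subunit of the phagocyte oxidase (log2 difference 1.19 ± 0.57 on U133A and 0.07 on U133B), and TXNRD2, the mitochondrial thioredoxin reductase (0.65 ± 0.38). Among lower genes they belonged to TXN2, the mitochondrial thioredoxin (−0.63 ± 0.28), and SQSTM1, the autophagy adaptor p62 (−1.27 ± 0.59 on U133B and 0.22 on U133A). Macrophage and neutrophil markers summed to 4458 and 4222 units in the medial rectus, against 7959 and 9975 in the lateral rectus. In that list S100A8, S100A9, CSF1R and LYZ were lower on both medial arrays, and CD163 and PTPRC overlapped. CD14, too dim to test, was higher on both medial arrays, at 158 and 272 units against 74.5 and 92.5. Among red blood cell markers HBB, the beta chain of haemoglobin, read 12873 and 8909 units in the medial rectus, against 32865 and 25641 in the lateral rectus, whereas AHSP, which binds alpha haemoglobin, read 1136 and 2465 against 1093 and 1025, and CA1, SLC4A1 and ALAS2 overlapped. The part of these markers in the antioxidant values was not tested.

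Microdissected layers were then set against whole rectus muscle, a comparison in which tissue and RNA amplification cannot be told apart. On U133A, 5 of the 15 tested antioxidant probe sets rose in the layers, 4 fell and 6 did not pass. These counts stand beside 48.7% of all 10533 probe sets that passed, 18.6% higher and 30.1% lower. On U133B the PARK7 probe set rose, where 42.8% of 10547 passed, and its arrays did not overlap, as for 40.7% of all. On U133A all layer arrays lay above all whole muscle arrays for 5 of the 15 (16.6% of all) and below them for 3 (27.3% of all), 8 together against 43.9% of all. All probe sets tested had a median log2 difference of −0.18 on U133A and −0.21 on U133B, and of 0.00 and −0.04 under quantile normalization, so differences are also given relative to that median. The layers are the same arrays as in the comparison of orbital with global layer, and the whole muscles those of medial with lateral rectus.

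SOD1 rose 2.24-fold, with the layer values given above, against 4633 and 2947 units on the medial arrays and 5005 and 4476 on the lateral arrays. Every layer array was above every whole muscle array, and the order was orbital, global, lateral and medial, with overlap only between the rectus muscles. It differed by 1.16 ± 0.26 on the log2 scale (adjusted p = 0.00354 in limma), which is 1.34 above the median of all probe sets, or 0.91 above it under quantile normalization.

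For SOD2 the brightest probe set rose as well. Its layers read 1864 to 3680.1 units, against 1801 and 987 on the medial arrays and 1247 and 1336 on the lateral arrays, without overlap (log2 difference 1.04 ± 0.27, adjusted p = 0.00838). Its other probe sets did not follow. The probe set 221477_s_at differed by −0.09 ± 0.28, or by 0.49 under quantile normalization, and 215078_at, too dim to test, read 25.4 to 154 units in the layers, against 420.5 to 799 in whole muscle.

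SOD3 fell, with 590.4 to 1131 units in the layers, against 955 to 3868 in whole muscle. Only lateral rectus replicate 1 lay within the range of the layers. The difference of −1.22 ± 0.37 on the log2 scale (adjusted p = 0.0178) missed the threshold at adjusted p = 0.120 under quantile normalization, 0.0720 without a filter, 0.0528 without medial rectus replicate 1 and 0.0524 without orbital layer replicate 2.

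GPX3 fell on its brightest probe set, with 1374 to 3052 units in the layers, against 3664 and 3852 on the medial arrays and 3974 and 4582 on the lateral arrays. All layer arrays were below all whole muscle arrays, with the orbital layer lowest and the lateral rectus highest, and no neighbouring groups in that order overlapped. Its log2 difference was −0.95 ± 0.23 (adjusted p = 0.00586), and relative to the median of all probe sets it was −0.77, or −0.91 under quantile normalization. The second GPX3 probe set differed by −0.43 ± 0.24 and did not pass.

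GPX4 rose by 0.63 ± 0.17 on the log2 scale, with 7307 to 11116 units in the layers, against 5762 and 5429 on the medial arrays and 6813 and 6454 on the lateral arrays (adjusted p = 0.00933). The arrays did not overlap, but the call ended under quantile normalization (0.29, adjusted p = 0.173). GPX1 differed by 0.50 ± 0.32 and did not pass: the global layer, at 2359 and 3405 units, overlapped both rectus muscles, at 2335 to 3922 units, and only the orbital arrays lay above them. Without global layer replicate 1 it passed, at 0.79 (adjusted p = 0.0344).

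Catalase gave different calls on its probe sets. The brightest differed by −0.09 ± 0.16, the narrowest standard error of the 15, with the widest distance between its 4 group means only 0.23 on the log2 scale, the least of the 10 genes. The second, 211922_s_at, fell by 0.54 on the log2 scale, with 2482 and 1564 units in the orbital and 2192 and 2418 in the global layer, against 2775 and 2837 on the medial arrays and 3523 and 3308 on the lateral arrays (adjusted p = 0.0382). That call ended under quantile normalization (adjusted p = 0.0937) and without orbital layer replicate 2 (0.109), lateral rectus replicate 1 (0.0942), lateral rectus replicate 2 (0.0876) or global layer replicate 1 (0.0502).

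PRDX6 had the widest rise of the 15 on its brightest probe set, with 12354 to 12778 units in the layers, against 3429 to 8058 in whole muscle. The layer arrays were nearly equal, and all lay above the whole muscle arrays, which were spread widely. Its log2 difference was 1.28 ± 0.22 (adjusted p = 8.14e-04), 1.46 above the median of all probe sets and 0.95 above it under quantile normalization. The other PRDX6 probe set read 610.1 to 1054 units in the layers, against 497 to 1294 in whole muscle, and differed by −0.31 ± 0.35, or by 0.26 under quantile normalization.

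PRDX3 gave opposite signs. The probe set 209766_at fell, with 718 and 539 units in the orbital and 1012 and 699 in the global layer, against 1816 and 1726 on the medial arrays and 1903 and 1650.3 on the lateral arrays (log2 difference −1.29 ± 0.23, adjusted p = 0.00107). Its layer arrays were all below its whole muscle arrays. The probe set 201619_at read 1608 to 1963 units in the layers, against 877 to 2262 in whole muscle. It differed by 0.46 ± 0.28 and did not pass, except under quantile normalization (0.82, adjusted p = 0.0494) and without lateral rectus replicate 2 (0.74, adjusted p = 0.0250). The gap between the probe sets was 1.76 on the log2 scale for PRDX3, 1.59 for PRDX6 and 1.13 for SOD2, against 0.52 for GPX3 and 0.45 for CAT.

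PARK7 rose on both array types. On U133A it read 14378 to 32156 units in the layers, against 10371 and 9274 on the medial arrays and 11671 and 10063 on the lateral arrays (log2 difference 0.99 ± 0.24, adjusted p = 0.00501). On U133B it read 71499.7 to 100159.6 units in the layers, against 21884 and 14272 on the medial arrays and 24508 and 15024 on the lateral arrays (2.14 ± 0.23, adjusted p = 3.67e-05). Neither set of arrays overlapped, and both kept the order global, orbital, lateral and medial. Under quantile normalization the difference was 0.48 on U133A (adjusted p = 0.136) and 0.87 on U133B (adjusted p = 0.00349). The 100 shared probe sets had a median difference of 0.27 on U133A and 1.05 on U133B.

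**Figure D4:**
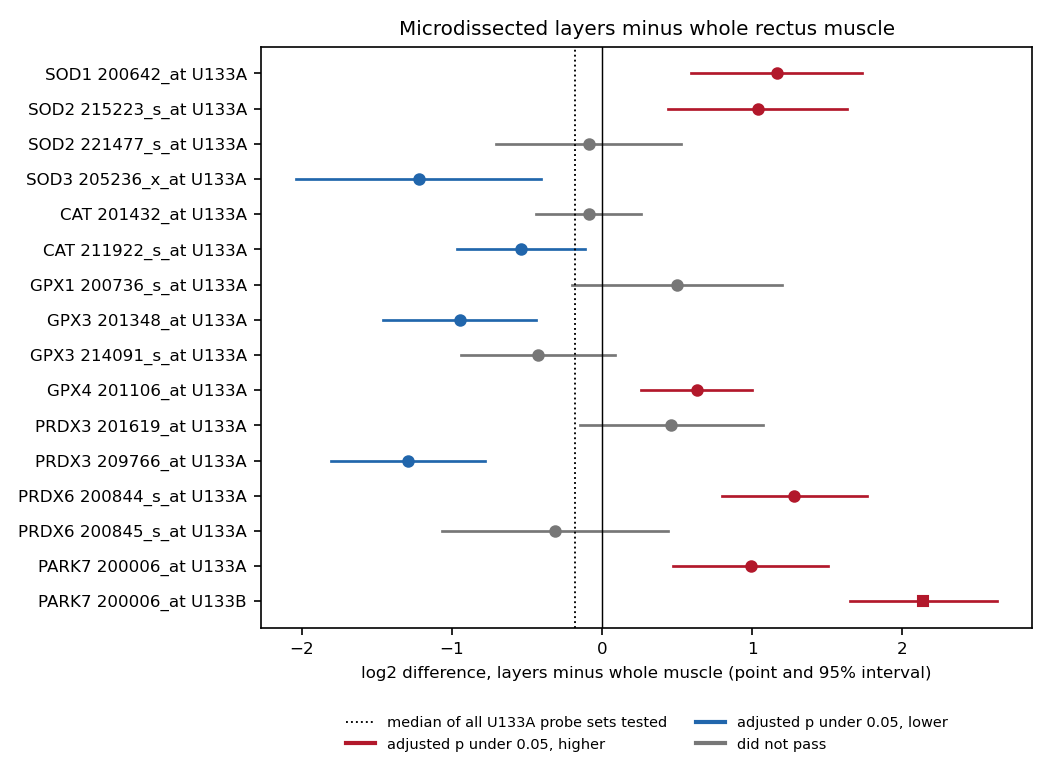
Log2 difference, microdissected layers minus whole rectus muscle, for each tested antioxidant probe set, with its 95% interval from limma; red passed as higher, blue passed as lower and grey did not pass, circles are U133A and the square is U133B. The probe sets of PRDX3, PRDX6 and SOD2 stand on different sides of 0, and the dotted line marks the median of all U133A probe sets tested, at −0.18.

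Of the redox lists, 13 genes rose, 13 fell and 32 did not pass on U133A, beside 18.6% of all probe sets that rose and 30.1% that fell. On U133B 2 rose, 3 fell and 14 did not pass, beside 42.8% of all probe sets there that passed in either direction. The medians were 0.01 and −0.28. Under quantile normalization 10 rose and 11 fell on U133A, of which 17 were called the same way before, and 2 rose and 2 fell on U133B. MSRB1 and MSRB3, which repair oxidised methionine, had the smallest p among genes that rose: MSRB1 read 3869 to 4541 units in the layers, against 633 to 793 in whole muscle (log2 difference 2.57 ± 0.17), and MSRB3 rose by 1.63 ± 0.19 on U133B. MGST3, a microsomal glutathione transferase, fell by 2.97 on the log2 scale on its U133B probe set and differed by 0.26 on U133A (−0.30 under quantile normalization), where neither value passed.

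Of the 8 oxidant source and uncoupling genes on U133A, only 4 were bright enough to test in this comparison. All 4 fell, where 30.1% of all probe sets fell, with a median of −1.28. Under quantile normalization the same 4 fell, with a median of −1.03. They were XDH, a xanthine oxidoreductase that can make superoxide (−1.80 ± 0.19), UCP2, a mitochondrial carrier (−1.58 ± 0.17), CYBA (−0.99 ± 0.25) and MAOA, which makes hydrogen peroxide as it oxidises amines (−0.88 ± 0.21). On U133B, CYBB fell (−1.16 ± 0.36), though not under quantile normalization (adjusted p = 0.153), while XDH and CYBA differed by −0.40 and −0.25 without passing. In the NRF2 list, named for the transcription factor that switches on antioxidant genes, 5 of 13 genes rose and 0 fell on U133A, where 18.6% of all probe sets rose and 30.1% fell. These were NFE2L2, which encodes NRF2 itself (0.85), its repressor KEAP1 (0.70), its partner MAFG (0.69), and the reductases NQO2 (2.17) and BLVRA (0.67). Under quantile normalization NFE2L2 did not pass (0.39, adjusted p = 0.118) and the other 4 did.

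Among the remaining genes, in log2 differences, PRDX4 of the endoplasmic reticulum (0.87) and TXNIP, which binds thioredoxin (0.50), rose, and the glutaredoxin GLRX (−2.06), TXN2 (−0.82) and the cytosolic thioredoxin reductase TXNRD1 (−0.80) fell. ATOX1, a copper chaperone (2.26), and SELENOP, a selenium carrier (1.36), rose. IDH2 (0.68) and ME1 (0.83), sources of NADPH, rose, and NNT (−0.66), which makes NADPH in mitochondria, fell. Of the glutathione transferases, MGST2 (0.95) and, on U133B, GSTA4 (2.27) rose, while GSTK1 (−0.96), GSTM4 (−0.96), GSTM1 (−0.76) and, on U133B, GSTM3 (−0.87) fell. The glutathione peroxidases GPX2 (−1.06) and GPX7 (−0.80) fell. On U133A, GSTM3 and GSTA4 differed by 0.23 and 0.18 without passing, and the GSTM genes are close in sequence, so that probes may bind more than 1 of them. Under quantile normalization the calls of TXNIP (0.0047), TXN2 (−0.56), TXNRD1 (−0.53), GPX2 (−0.68), GPX7 (−0.28), GSTM4 (−0.61), IDH2 (0.24) and ME1 (0.27) ended. Adjusted p-values of the redox genes named here as risen or fallen lay between 5.2e-06 and 0.0415 in limma.

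The smooth muscle and pericyte markers on U133A summed to 37609 to 44295 units in the layers, against 19048 to 31625 in whole muscle. Of the 7 tested there, 4 rose, NOTCH3 fell (log2 difference −1.10), and PDGFRB (−0.72) and TAGLN (0.26) did not pass. On U133B the sum of this list overlapped, while MYLK rose (1.41) and TAGLN fell (−0.91). The 5 measured nerve and Schwann cell markers on U133A summed to 9241 to 10467 in the layers, against 11091 to 15886 in whole muscle. Of these MBP fell (−0.52), and SOX10 differed by 0.41 without passing. The sums of skeletal muscle, endothelial, red blood cell, fibroblast, macrophage and adipocyte markers overlapped on U133A, though single genes of these lists did not all overlap. Of the skeletal muscle markers CKM fell (−0.54), MYH7 (0.96) and TNNT1 (1.45) rose, and 5 did not pass. Of the adipocyte markers LPL rose (1.33) and CIDEC fell (−0.74). ADIPOQ, PLIN1 and LEP, too dim to test, were lower on every layer array. LIPE, also too dim, overlapped, and FABP4 and CFD did not pass. On U133B the 2 endothelial markers there summed to 11116 to 13426 units in the layers, against 4299.7 to 6965 in whole muscle. EMCN made up most of that sum and rose (1.29), though on U133A it differed by −0.35 without passing. VWF, too dim to test on U133B, was lower on every layer array, and on U133A it fell (−0.73). The 4 fibroblast and matrix markers on U133B summed to 12827 to 18304 units in the layers, against 6399.7 to 7726 in whole muscle. Of these COL1A2 (1.62) and COL3A1 (2.36) rose, DCN fell (−1.68) and LUM overlapped. Of the red blood cell markers on U133A, HBB overlapped, AHSP (−1.90, adjusted p = 0.00398) and CA1 (−1.29, adjusted p = 0.0220) fell, and SLC4A1 and ALAS2, too dim to test, were lower on every layer array. On U133B ALAS2 fell (−2.04, adjusted p = 0.00954). The part of these markers, and that of the ACTB and GAPDH ratios, was not tested.

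SOD3 and SOD1 had the widest distance between group means on their brightest U133A probe sets, 1.77 and 1.75 on the log2 scale. For SOD3 all neighbouring groups in the order medial, lateral, global and orbital overlapped, as they did for CAT in the order lateral, global, medial and orbital, and for PRDX3 in the order orbital, global, lateral and medial. SOD2 ran global, orbital, medial and lateral, with overlap only between the rectus muscles. GPX1 ran orbital, lateral, global and medial, with only the orbital layer apart. GPX4 and PRDX6 ran orbital, global, lateral and medial, with overlap only between the layers. The genes most like SOD3 across the 8 arrays were ENDOD1 (Pearson r = 0.974), SCRG1 (0.968) and NOD1 (0.965), and those most like SOD1 were NIPBL (0.987), IGF2R (0.981) and PLAAT3 (0.980), out of 9299 probe sets compared. The arrays share their groups, amplification and scaling, and these values are a description.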

How the data were processed

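The authors deposited a linear intensity for each probe set on each array. With 2% of values trimmed from both ends, array means were 1500.3 to 1500.6 on U133A and 1500.2 to 1500.7 on U133B, which is how globally scaled arrays look. What software made the summary is not given in the sources used here. T7 amplification of layer RNA is stated per the labels' protocols.

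Arrays were first brought to 1 trimmed mean. Lower values were then raised to a floor, the 20th percentile of all values of the array type (146 on U133A, 218 on U133B), before log2 was taken. A probe set was tested where its mean log2 value in the arrays under comparison was at least that of the pooled median (654 and 803 units). Tests used limma 3.58.1 in R 4.3.3, with 2 groups and an intensity trend, two-sided, and Benjamini-Hochberg adjustment over all probe sets tested on that array type; array types were fitted separately. Each table's 68 control probe sets were not tested. The fit was tested on simulated data. Figures were drawn with matplotlib 3.10.9 in Python 3.11.15. Printed array values, means and SDs are the deposited intensities.

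Arrays were grouped by title. Symbols were those of GEO's platform annotation, where 19071 U133A probe sets have 1 symbol, 1043 several and 2169 none, and on U133B 15432 have 1, 554 several and 6659 none. Members and lists were chosen with earlier results of these data known. All members were named, and from the redox lists the genes that passed and the 2 with the smallest p in each direction. The listed genes without a probe set of their own were not analysed here. As alternatives, arrays were quantile normalized, the floor was moved to the 5th percentile, the filter was dropped or put on the linear mean (added after seeing the data), variances had no trend, the 4 groups shared a fit, the replicate number was a block, or an array was left out.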

Additional observations from a re-analysis of the deposited data

Results flagged for a closer look

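Over the 4 layer arrays and the 4 whole muscle arrays, 32 sets of 4 values were checked for a sample far from the others. Only 1 was found, which is no more than chance gives, at about 1 in every 20 sets checked. The dimmer PRDX6 probe set (200845_s_at) read 496.8 units on medial rectus replicate 2, against 1143 to 1294 on the other 3 whole muscle arrays. The brightest PRDX6 probe set was also lowest on that array, at 3429 units. Without it, the dimmer probe set differed by 0.18 between medial and lateral rectus, against −0.51 with it.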

How the results depend on the processing

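Under every alternative that kept all arrays, 0 antioxidant probe sets passed in limma between the layers and between the rectus muscles. Between layers and whole muscle, 6 to 9 passed on U133A over all alternatives (6 under quantile normalization), with PARK7 on U133B passing throughout. The number tested on U133A was 15 in the main fit and varied with the setting. With 2 arrays a group, single differences often turned on 1 array, and the cause was not tested.

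Quantile normalization turned the difference to −0.0345 for PRDX6 200844_s_at between the layers, 0.0634 for PARK7 on U133B between the rectus muscles, and 0.49 for SOD2 221477_s_at and 0.26 for PRDX6 200845_s_at between layers and whole muscle. Leaving out 1 array turned these differences between the layers: SOD2 221477_s_at (−0.32 to 0.13), SOD3 (−0.64 to 0.30), CAT 211922_s_at (−0.56 to 0.11), GPX4 (−0.17 to 0.44), PRDX3 201619_at (−0.12 to 0.16) and PRDX6 200844_s_at (−0.0142 to 0.0344). Between the rectus muscles it turned SOD2 215223_s_at (−0.39 to 0.48), CAT 201432_at (−0.29 to 0.0751), PRDX3 201619_at (−0.96 to 0.40), PRDX3 209766_at (−0.10 to 0.10), PRDX6 200845_s_at (−1.20 to 0.18) and PARK7 on U133B (−0.47 to 0.23), and between layers and whole muscle SOD2 221477_s_at (−0.21 to 0.0929). None of these passed with all arrays. Of all 560 single values, 524 kept direction and side of the threshold, 22 turned, 11 lost and 3 gained their call.

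With the replicate number as a block between the layers, 0 antioxidant probe sets passed, and the adjusted p was 0.0575 for GPX1, 0.106 for PARK7, 0.149 for SOD2 and 0.180 for SOD1. Same-numbered arrays deviated together with r = 0.233 on U133A and 0.0877 on U133B across probe sets, and the labels do not say what a number marks. Over all alternatives the adjusted p of GPX1 ranged from 0.0575 to 0.636, that of SOD1 from 0.0719 to 0.923 and that of PARK7 on U133A from 0.0718 to 0.568. Of the rectus arrays, 3 on U133A and 1 on U133B have no number in their titles and were numbered by accession order, which pairs nothing. No paired analysis was possible between the rectus muscles, or between layers and whole muscle on U133A, because their titles share fewer than 2 numbers. On U133B the 7 arrays with numbered titles were fitted with the replicate block, added after seeing the data, and PARK7 differed by 2.04 between layers and whole muscle (adjusted p = 2.05e-04).

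Over all probe sets, 39 passed between the layers on U133A, against 21 under quantile normalization, 0 without a filter, 12 without a trend, 92 with the replicate block and 68 to 144 with an array left out. On U133B 2 passed, against 0 under quantile normalization, the lower floor, no filter or no trend, 10 with the 4 groups in a shared fit, 26 with the replicate block and 0 to 28 with an array left out. Between the rectus muscles 0 passed on U133A, against 9 without medial rectus replicate 1 and 1 without medial rectus replicate 2.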
